A study of Rattus norvegicus with 4 samples.

Results

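The cholesterol and fatty acid synthesis genes are 36 rat genes chosen by function: the enzymes that build cholesterol and fatty acids and the proteins that control, move or store these lipids. They were found on the arrays by matching each probe's transcript accession to its RefSeq symbol, and all 36 had at least 1 probe, among 16506 named genes measured. The cells were NR8383, an established line of rat alveolar macrophages obtained from normal lung by lavage, which grows partly attached and partly floating. All 4 biological replicates had 1 condition, 4 h in DMEM medium with 10% fetal bovine serum, after growth in 15% serum, 48 h in flasks and 20 passages. The labels add the letters ALI to this condition without explaining them. With 1 group of cells from 1 line there was no treatment to compare, and what follows describes which members were present and how they varied between the 4 arrays.

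Cholesterol is made from acetyl-CoA through mevalonate, squalene and lanosterol. The pathway is governed by the membrane-bound transcription factors encoded by Srebf1 and Srebf2, which the escort protein Scap carries to the Golgi for activation when sterols are scarce, while the Insig proteins hold Scap back when sterols are plentiful. The liver X receptors, encoded by Nr1h2 and Nr1h3, sense oxidised sterols and switch on cholesterol export, and in alveolar macrophages sterol handling is part of the clearance of surfactant lipid.

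Depth of signal differed between the arrays. The share of the 58717 transcript spots flagged well above background was 50.9% on replicate 1 and 58.9% on replicate 4, the lowest and highest of the 4, and the 75th percentile of signal was 83.4 and 167 on the same arrays. Of the macrophage markers, 9 of 9 measured were detected, among them Cd68 at 7.44 ± 0.17 and Spi1 at 3.78 ± 0.11 (SD, n = 4). Of 15 markers of epithelium, fibroblasts, endothelium, lymphocytes and neutrophils measured, 2 were detected, Pecam1 and Cdh5. Both came from the endothelial list, whose remaining gene, Kdr, was not detected. Whether they mark endothelial cells here was not tested. A gene was called detected if, on all 4 arrays, the scanner software flagged most spots of 1 of its probes as well above background. Levels are log2 signals relative to the array's own 75th percentile, averaged over a gene's detected probes (over all its probes where none was detected), and a difference in level between 2 genes has no meaning, since probes differ in brightness.

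Of the 36 members, 32 were detected on all 4 arrays (88.9%), where 53.1% of all named genes were. All 18 enzymes of sterol synthesis were among them, from acetyl-CoA to cholesterol: 7 of 7 in the entry and mevalonate steps and 11 of 11 from squalene onwards. All 7 regulators and all 4 genes of transport, storage and membrane lipids were detected too. Fatty acid synthesis and desaturation had 3 of 7 detected (42.9%), below the other roles but near the 53.1% of all named genes. The 4 undetected members were Fasn, Scd, Fads1 and Fads2.

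Over the arrays the detected members shared a pattern: 22 of 32 had their highest level on replicate 1, where 42.3% of all detected genes did, and 19 of 32 had their lowest on replicate 2, where 23.4% of all detected genes did. Among the sterol synthesis enzymes 14 of 18 were highest on replicate 1 (77.8%) and 14 of 18 lowest on replicate 2 (77.8%). Both held at once for 12 of 18 enzymes (14.5% of all detected genes). No enzyme of the 18 was highest on replicate 2 (21.9% of all detected genes). Replicate 2 lay below both replicate 3 and replicate 4 in 14 of 18 enzymes and 19 of 32 members (33.5% of all detected genes). Outside sterol synthesis, 8 of 14 detected members were highest on replicate 1 and 5 of 14 lowest on replicate 2. The remaining extremes were spread out. Of the 32 members 3 were lowest on replicate 1, 5 on replicate 3 and 5 on replicate 4, where 32.8%, 11.1% and 32.7% of all detected genes were, and 3 were highest on replicate 2, 2 on replicate 3 and 5 on replicate 4, where 21.9%, 19.9% and 15.8% of all detected genes were. These counts describe single arrays and carry no test.

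**Figure D1:**
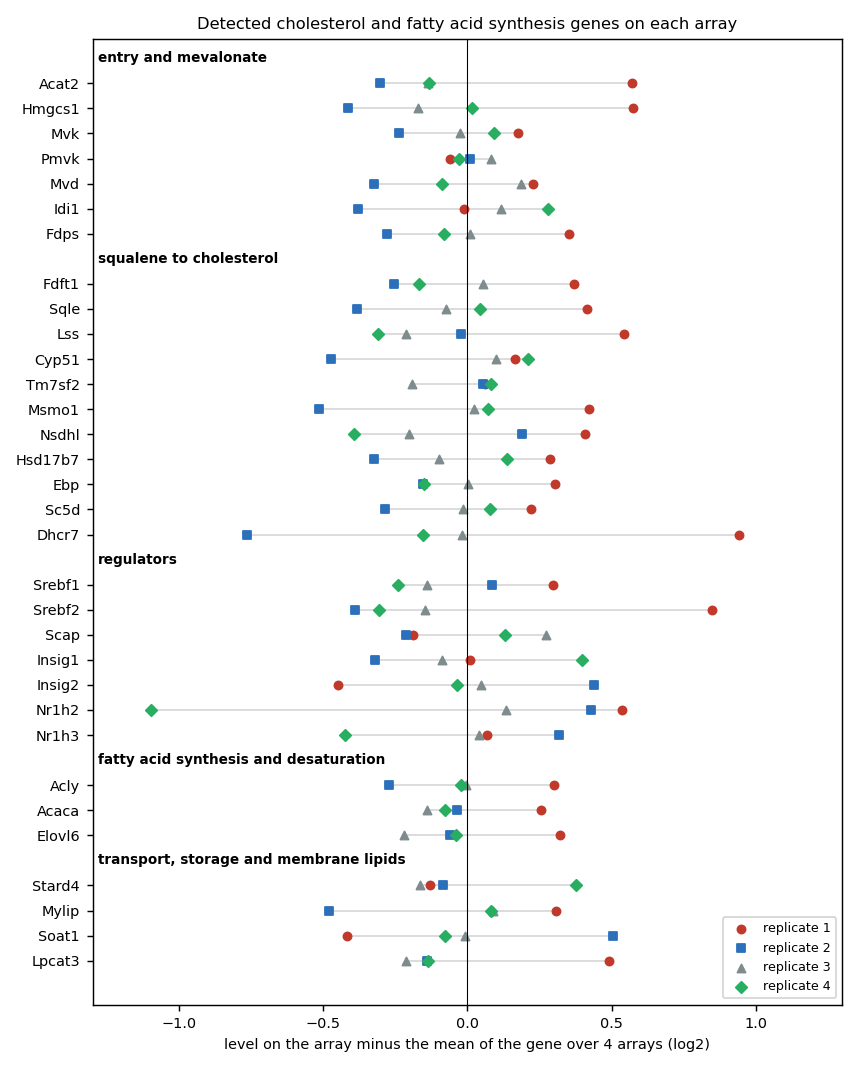
Level of each of the 32 detected members on each array minus that gene's mean over the 4 arrays, in log2 units, grouped by role. Replicate 1 (circles) lies farthest right and replicate 2 (squares) farthest left for 14 of 18 sterol synthesis enzymes each, while Insig2 and Soat1 lie the other way round.

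**Figure D2:**
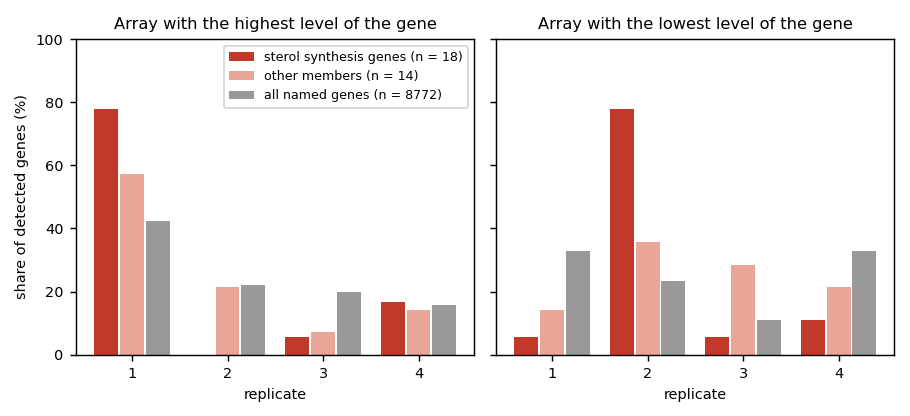
Share of detected genes, in percent, whose highest (left) or lowest (right) level fell on each replicate, for the 18 sterol synthesis genes, the 14 other detected members and all 8772 detected named genes. The bars of sterol synthesis genes reach 77.8% on replicate 1 at the high end and on replicate 2 at the low end, against 42.3% and 23.4% of all named genes.

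The median member lay 0.40 log2 units above the mean of the other arrays on replicate 1, where the median of all detected genes lay at 0.07. On replicate 2 it lay at -0.33, against -0.0024 for all detected genes. The value on replicate 1 was 0.22 under normexp background correction, and that on replicate 2 was -0.19 without replicate 1. In all, 26 of 32 members lay above the mean of the other arrays on replicate 1 (55.8% of all detected genes) and 24 of 32 below it on replicate 2 (50.4%). On replicates 3 and 4 the members' medians were -0.02 and -0.05. For the sterol synthesis enzymes alone the medians were 0.44 on replicate 1 and -0.39 on replicate 2. Without replicate 1, 14 of 18 enzymes were lowest on replicate 2, against 34.0% of detected genes over those 3 arrays. Leaving out replicate 1 could not lower this count, which repeats that of enzymes below both replicates 3 and 4. The high position of replicate 1 depended on the scaling: 10 of 18 enzymes were highest there when arrays were scaled to the probes detected on all arrays (34.8% of genes), 11 under normexp background correction (39.5%) and 13 under quantile normalization (38.7%).

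Genes of the cell cycle also stood high on replicate 1. Of 18 cell cycle genes detected, 17 lay above the mean of the other arrays on replicate 1 and 17 below it on replicate 2, with median differences of 0.55 and -0.29, and 15 of 18 were highest on replicate 1. Their lowest array was replicate 2 in 9 of 18 and replicate 4 in 8 of 18, and replicate 2 lay below both replicates 3 and 4 in 9 of 18. Pecam1, from the endothelial list, at 1.19, -0.50, -0.05 and 0.12, was also highest on replicate 1 and lowest on replicate 2. Cdh5 was lowest on replicate 2 but highest on replicate 3. Of the 9 macrophage markers, 2 had the order of Pecam1, Mrc1 at 3.71, 2.23, 2.31 and 2.50 and Pparg at 6.86, 5.78, 6.03 and 5.97. Of the same 9, 5 were lowest on replicate 4. Replicate 1 also had the lowest 75th percentile of signal. The part of any of these in the sterol pattern was not tested.

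In the entry and mevalonate steps 6 of 7 members were lowest on replicate 2 and 5 of 7 highest on replicate 1. Hmgcs1, which joins acetyl-CoA to acetoacetyl-CoA and is a classical target of the Srebf factors, had the widest range of these. It lay at 4.46, 3.47, 3.71 and 3.90 on replicates 1 to 4. Replicate 1 stood highest and replicate 2 lowest, a spread of 1.99-fold. Pmvk, the phosphomevalonate kinase, had the narrowest range, at 2.56, 2.63, 2.70 and 2.59. Its arrays lay within 0.14 log2 units of each other. The other kinase, Mvk, lay at 1.02 ± 0.18, the decarboxylase Mvd at 4.34 ± 0.26 and the farnesyl diphosphate synthase Fdps at 4.77 ± 0.26 (SD, n = 4). Idi1, which isomerises the isoprene unit, was lowest on replicate 2 at 1.93 but highest on replicate 4 at 2.59. Acat2, which makes the acetoacetyl-CoA for this step, had 4 probes that were all highest on replicate 1, and its mean level was 2.00 there against 1.12 to 1.29 on the other arrays.

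From squalene onwards 8 of 11 members were lowest on replicate 2 and 9 of 11 highest on replicate 1. Dhcr7, the last reductase of the pathway, varied most of all 18 enzymes, at 3.43, 1.72, 2.47 and 2.33 on replicates 1 to 4. Replicate 2 was thus 3.26-fold below replicate 1, with replicates 3 and 4 between them. Msmo1, which removes methyl groups from the sterol ring, read 5.56, 4.63, 5.17 and 5.21. The squalene epoxidase Sqle read 4.20, 3.40, 3.71 and 3.83. Both were highest on replicate 1 and lowest on replicate 2. Cyp51, the lanosterol demethylase, read 4.99, 4.35, 4.92 and 5.04, so replicate 2 stood apart below 3 arrays that lay close together.

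The remaining enzymes of this stretch were not alike. Fdft1, which makes squalene, at 3.53 ± 0.28, Hsd17b7 at -0.09 ± 0.27, the isomerase Ebp at 4.35 ± 0.22 and the desaturase Sc5d at 0.93 ± 0.21 (SD, n = 4) followed the pattern. Lss, which closes the sterol ring, and Nsdhl were highest on replicate 1, at 3.01 and 2.37, but lowest on replicate 4, at 2.16 and 1.57. Tm7sf2, a reductase of the sterol nucleus, had the narrowest range of the stretch, at 1.03, 1.02, 0.77 and 1.05, and was lowest on replicate 3.

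For 7 members a probe was printed 10 times per array, which shows how far the arrays differed beyond the noise between spots. The SD between spots of 1 array lay between 0.05 and 0.26. For Msmo1 the spot means of replicates 1 to 4 were 5.56 ± 0.12, 4.63 ± 0.16, 5.17 ± 0.05 and 5.21 ± 0.06 (SD over the spots of an array), so the arrays lay farther apart than the spots. In all 7 members every spot kept on replicate 2 lay below every spot kept on replicate 1. How often this holds for repeated probes of other genes was not counted, so it cannot be called particular to the members. Of all detected genes 42.3% were highest on replicate 1. In Sqle, Cyp51 and Msmo1 every spot on replicate 2 also lay below every spot on replicates 3 and 4. In Acat2, Fdps, Msmo1, Ebp and Acly every spot on replicate 1 lay above all spots of the other arrays. Spots of 1 array share its RNA, so differences between cultures and between labelling reactions cannot be told apart here.

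**Figure D3:**
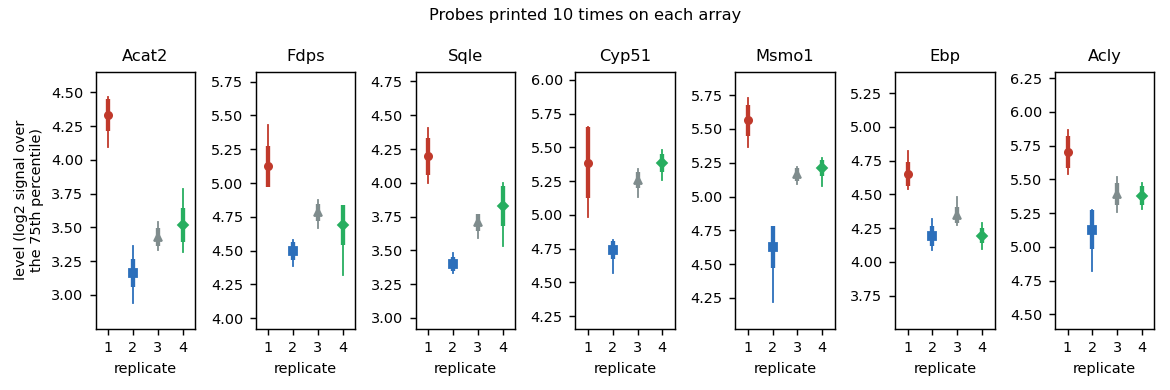
Level of the 7 members with a probe printed 10 times per array, by replicate. Symbols are means over 8 to 10 spots, thick bars the SD and thin lines the lowest to highest spot, in log2 units relative to the array's 75th percentile. Replicate 2 lies below replicate 1 without overlap in all 7 panels, which have the same height in log2 units.

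The promoters of these genes were read from RefSeq sequences on build GRCr8, 250 bases before to 50 after the annotated transcription start, which matched 29 of the 36 members. Whether transcription begins at the annotated start in these cells was not tested. A CCAAT box, the motif bound by the factor NF-Y that works beside the Srebf factors at many sterol genes, was searched as CCAAT on both strands. It was found in 12 of 15 sterol synthesis promoters (80.0%) and 21 of 29 member promoters (72.4%), where 39.4% of 7319 detected genes and 39.6% of all 27457 genes with a promoter in the table had one. The Sp1 box, searched as GGGCGG on both strands, was in 13 of 15 sterol synthesis promoters and in 61.9% of detected genes. The sterol regulatory element in the form TCACNCCAC, where N is any base, was in none of the 29, and in 1.16% of detected genes. None of the 44 CCAAT matches in members overlapped a match to another motif searched. These are matches of letters in a window and not measured sites.

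The windows of Hmgcs1 (chr2:53382054-53382353, plus strand) and Msmo1 (chr16:29746863-29747162, plus strand) are shown because both genes followed the array pattern and carry several CCAAT boxes. That of Dhcr7 (chr1:208444184-208444483, plus strand) is shown because the gene varied most and its window holds no CCAAT box. Each is given 5′ to 3′ on the gene's strand, with CCAAT or its reverse ATTGG in capitals.
Hmgcs1: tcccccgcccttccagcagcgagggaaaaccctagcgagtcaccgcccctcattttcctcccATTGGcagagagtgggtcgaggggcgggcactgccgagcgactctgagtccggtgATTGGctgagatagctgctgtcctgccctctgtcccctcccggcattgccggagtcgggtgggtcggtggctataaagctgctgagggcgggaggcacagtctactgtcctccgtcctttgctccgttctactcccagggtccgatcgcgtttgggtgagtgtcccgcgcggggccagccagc
Msmo1: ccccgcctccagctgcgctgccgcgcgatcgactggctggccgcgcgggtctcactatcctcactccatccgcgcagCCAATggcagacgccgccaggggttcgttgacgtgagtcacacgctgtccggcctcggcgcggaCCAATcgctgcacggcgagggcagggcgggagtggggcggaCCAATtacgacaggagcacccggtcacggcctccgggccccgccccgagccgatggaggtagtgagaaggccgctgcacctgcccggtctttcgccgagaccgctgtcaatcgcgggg
Dhcr7: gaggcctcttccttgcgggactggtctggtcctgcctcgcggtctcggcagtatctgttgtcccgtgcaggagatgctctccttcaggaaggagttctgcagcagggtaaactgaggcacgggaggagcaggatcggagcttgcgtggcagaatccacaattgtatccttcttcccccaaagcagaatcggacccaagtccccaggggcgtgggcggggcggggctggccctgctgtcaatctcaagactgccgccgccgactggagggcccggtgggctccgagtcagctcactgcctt
The Hmgcs1 window holds 2 CCAAT boxes, which begin 188 and 133 bases before the start. The Msmo1 window holds 3 CCAAT boxes, which begin 173, 109 and 68 bases before it. Boxes were found in enzymes on and off the array pattern. Nsdhl carries them but was lowest on replicate 4, while Acat2 and Dhcr7 followed the pattern without one. A link between the boxes and the array pattern was not tested.

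The regulators did not share 1 pattern: 3 of 7 were highest on replicate 1, 3 of 7 lowest on replicate 2 and 3 of 7 lowest on replicate 4. Of all detected genes 42.3%, 23.4% and 32.7% were. Srebf2, the factor that mainly drives sterol genes, lay at 5.05, 3.81, 4.05 and 3.89 on replicates 1 to 4. Replicate 1 was 2.36-fold above replicate 2, and the other 3 arrays lay close together. Srebf1, which mainly drives fatty acid genes, lay at 2.31, 2.09, 1.87 and 1.77. Its 2 probes differed, since 1 was highest on replicate 1 and lowest on replicate 4 and the other highest on replicate 2 and lowest on replicate 3. Scap, the escort protein, lay at 2.34, 2.31, 2.80 and 2.65, with replicates 1 and 2 below the other pair.

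Insig1 and Insig2 went in different directions. Insig1, itself a target of the Srebf factors, lay at 3.31, 2.98, 3.21 and 3.70, lowest on replicate 2 and highest on replicate 4 on both of its probes. Insig2, which is known to be controlled separately from Insig1, lay at -0.70, 0.18, -0.21 and -0.29. It was lowest on replicate 1 and highest on replicate 2, the reverse of the sterol enzymes, a combination seen in 2 of 32 detected members and 12.7% of all detected genes. The window of Insig1 (chr4:8057720-8058019, minus strand) and that of Insig2 (chr13:35040049-35040348, minus strand) are shown for comparison, with capitals as above.
Insig1: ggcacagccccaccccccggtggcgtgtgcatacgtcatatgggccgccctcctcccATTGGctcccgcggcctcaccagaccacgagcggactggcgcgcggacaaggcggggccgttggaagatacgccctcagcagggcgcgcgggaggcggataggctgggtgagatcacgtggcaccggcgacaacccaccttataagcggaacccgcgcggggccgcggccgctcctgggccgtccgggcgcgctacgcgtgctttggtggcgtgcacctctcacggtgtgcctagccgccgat
Insig2: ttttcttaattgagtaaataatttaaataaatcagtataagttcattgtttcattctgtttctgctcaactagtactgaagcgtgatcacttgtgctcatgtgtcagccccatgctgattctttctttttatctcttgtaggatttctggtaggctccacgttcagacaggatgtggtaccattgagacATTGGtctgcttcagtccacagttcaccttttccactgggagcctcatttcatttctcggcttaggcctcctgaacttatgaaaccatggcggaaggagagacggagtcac
Each window holds 1 CCAAT box, which begins 193 bases before the annotated start in Insig1 and 61 bases before it in Insig2. Whether the Insig2 window is the promoter used in these cells was not tested. The Insig1 window also holds an E-box, searched as CACGTG, found in 3 of 29 member promoters and 9.82% of detected genes.

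Both liver X receptors were present. Nr1h3, the form abundant in macrophages and liver, lay at 6.10, 6.36, 6.07 and 5.61. It was highest on replicate 2 and lowest on replicate 4. Nr1h2, the more widely expressed form, lay at 4.05, 3.94, 3.65 and 2.41, so replicate 4 stood 3.10-fold below replicate 1. Its only spot lay in the area taken as a dim patch on the surface of replicate 4. That area was a box around 77 detected probes that were more than 2 log2 units low there, with a margin of 5 rows and columns. Without the spots of that patch Nr1h2 had no value. Of the other members only Msmo1 had a spot in the patch, 1 of its 10.

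In the fatty acid branch the transcripts of Acly, Acaca and Elovl6 were detected and that of the synthase Fasn was not. Acly, which makes cytosolic acetyl-CoA from citrate, lay at 5.70, 5.13, 5.39 and 5.38, highest on replicate 1 and lowest on replicate 2. Acaca, the acetyl-CoA carboxylase that commits carbon to fatty acids, lay at -1.36, -1.65, -1.76 and -1.69, and both of its probes were well above background on all arrays. The elongase Elovl6 lay at -0.58 ± 0.23 (SD, n = 4) on 1 of its 2 probes. Without replicate 3 both probes counted as detected and the level was -1.54. The second probe was well above background on 3 arrays, so its probes fell on both sides of the call, the only member of which this was true.

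The 4 undetected members were read as signals, since they had no reliable level. Fasn, the fatty acid synthase, gave 5.04, 3.44, 3.69 and 3.66 on replicates 1 to 4, at most 1.55 times the 95th percentile of the negative controls. Fads1, the delta-5 desaturase, gave 2.21, 5.49, 2.60 and 7.08, below that limit on replicates 1 and 3. Fads2, the delta-6 desaturase, gave 7.93, 3.21, 5.88 and 10.5, below the limit on replicate 2 and at most 2.84 times it on the others. All 3 were well above background on no array.

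Scd, the stearoyl-CoA desaturase, was the nearest to the call, with signals of 12.7, 10.96, 9.29 and 12.2 and the flag on replicate 2 alone. A limma test of each probe against the negative control limit, adjusted over all probes, called Scd (adjusted p = 4.57e-05) and Fads2 (adjusted p = 0.0193) but neither Fasn (adjusted p = 0.200) nor Fads1 (adjusted p = 0.379). Under that test 34 of 36 members were detected, where 69.2% of all named genes were. The looser positive-and-significant flag of the scanner software gave 34 of 36 as well, where 66.9% of all genes passed. Asking for only 3 arrays above background left the count at 32 of 36, where 57.3% of all genes passed. Each of the 4 genes rested on 1 probe, so a poor probe and an absent transcript cannot be told apart.

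**Figure D4:**
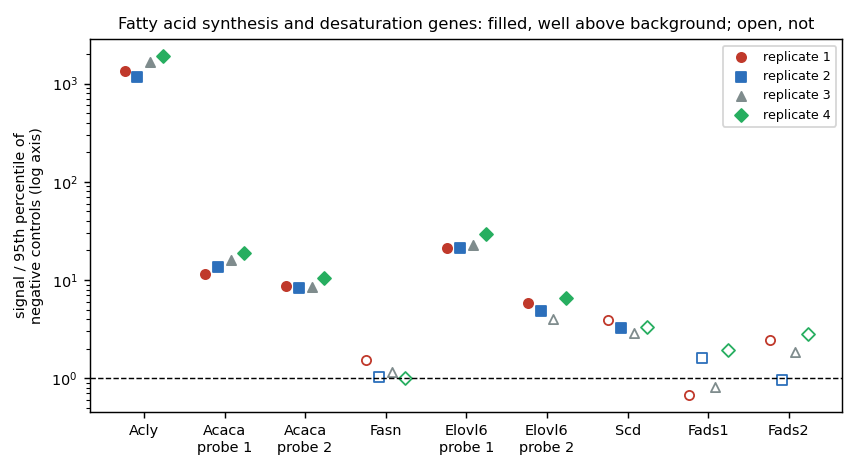
Processed signal of each probe of the 7 fatty acid synthesis and desaturation genes divided by the 95th percentile of the negative control spots of the same array, on a log axis, for 4 replicates. Filled symbols are well above background and open ones are not. Fasn, Fads1 and Fads2 lie at no more than 2.84 times the limit (dashed line), Scd at up to 3.89, and the probes are not to be compared in height.

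The genes of transport, storage and membrane lipids differed from each other. Soat1, which esterifies cholesterol for storage in droplets, lay at -0.53, 0.39, -0.13 and -0.19, lowest on replicate 1 and highest on replicate 2 like Insig2. Stard4, a carrier of sterol between membranes and a target of the Srebf factors, lay at 1.09, 1.13, 1.05 and 1.60, so replicate 4 stood above 3 close arrays. Its 2 probes did not share that order: 1 was highest on replicate 1 and the other on replicate 4. Mylip, a ubiquitin ligase that liver X receptors induce, lay at -1.62, -2.40, -1.84 and -1.84, lowest on replicate 2. Lpcat3, a liver X receptor target that remodels membrane phospholipids, lay at 4.35, 3.72, 3.65 and 3.73, with replicate 1 alone above the rest. A single array so far from the other 3 was seen in 4 of 32 detected members and in 8.41% of all detected genes by Dixon's ratio.

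The spread of the members was above that of the average gene. The median SD over the 4 arrays was 0.29 in the 32 detected members and 0.24 in all detected genes, and without replicate 1 the values were 0.22 and 0.15. A range above 1 log2 unit was found in 3 members, Dhcr7, Srebf2 and Nr1h2, a share of 9.38%, where 14.2% of all detected genes had one. For 10 members with several probes, all probes were lowest on the same array in 7 and highest on the same array in 7. The same counts over all genes with several probes were not made, so these have no background share beside them.

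Other genes of the same biology were read from lists of 46 genes, of which 44 were measured and 37 detected (84.1%, against 53.1% of all named genes). The list of other sterol synthesis had 5 of 5 detected, of which 4 were highest on replicate 1, 2 lowest on replicate 2 and 3 lowest on replicate 4. Over all 37 detected genes of these lists, 22 were highest on replicate 1 and 9 lowest on replicate 2, which is 59.5% and 24.3%, against 42.3% and 23.4% of all detected genes.

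Of the other lists, processing and degradation of the Srebf system had 6 of 7 detected, uptake and lysosomal release of cholesterol 6 of 7, efflux and oxysterols 9 of 10 and other fatty acid synthesis 11 of 15. Those not well above background on any of the arrays included Mbtps2, a protease that releases the Srebf factors, and Acacb, the mitochondrial acetyl-CoA carboxylase. In the efflux and oxysterol list 5 of 9 detected genes were highest on replicate 1 and 2 of 9 lowest on replicate 2.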

How the data were processed

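Total RNA of 4 biological replicates was labelled with Cy3 and hybridised to 1-colour Agilent arrays, 1 array per replicate. The submitters' processing notes name Agilent Feature Extraction 11.0.1.1 as the software. The authors deposited its output for each array as linear intensity, per the file headers, with a signal already corrected for background within the array, and median foreground and local background signals as scanned. Nothing was scaled between arrays. All arrays came from 1 slide and 1 scan, per the file headers, so neither could be tested as a batch. Where replicates differ, the spread is that between these arrays.

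Of 62976 spots per array, control spots and outlier spots (440 to 1206 per array) were left out, and no spot was saturated. Log2 processed signals were averaged over the spots of a probe and set relative to the array's 75th percentile over 45280 probes. Accessions were named through RefSeq (GRCr8, for names and promoters), which named 17528 of 40283 accessions and 20990 probes; the files hold no gene name column. The detection rule is given above; a probe's spots counted by majority. The 36 members and all lists were chosen with earlier results of these data known. Values on each array are given for undetected members, regulators, and the widest and narrowest range in each other role, and for further genes that were picked with their values in view. Some genes of the further lists are not reported here by name.

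Alternatives were looser detection calls, detection on at least 3 arrays, no filter on dim probes, other scalings, normexp (offset 50) on median signals, the first detected probe, removal of the dim patch and each replicate left out. The counts for sterol synthesis alone were added after seeing the data. The planned naming through accessions only was the main setting. The limma test compared log2 signals over 4 arrays with the negative control limit, one-sided, with Benjamini-Hochberg adjustment, and was tested on simulated data. Computation used R 4.3.3, limma 3.58.1, Python 3.11.15 and pandas 2.3.3, and figures matplotlib 3.10.9. The number of arrays limits the precision.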

Additional observations from a re-analysis of the deposited data

Results flagged for a closer look

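In 4 of 32 detected members 1 array lay so far from the other 3 that its gap exceeded Dixon's 95% critical value for 4 samples, which chance gives in about 1 of 20 groups and which 8.41% of all detected genes showed. Cyp51 was low on replicate 2, at 4.35, with the other arrays between 4.92 and 5.04. Tm7sf2 was low on replicate 3, at 0.77, with the other arrays between 1.02 and 1.05. Stard4 was high on replicate 4, at 1.60, with the other arrays between 1.05 and 1.13. That is the mean of 2 probes that did not share this order, since 1 of them was highest on replicate 1. Lpcat3 was high on replicate 1, at 4.35, with the other arrays between 3.65 and 3.73. The 4 genes stood apart on 4 different arrays.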

How the results depend on the processing

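The number of detected members stayed between 31 and 34 under every alternative that bears on it, and the lower value came from the loss of Nr1h2 with the dim patch. The members' median deviation kept its sign on replicate 1 (0.34 to 0.44 when 1 replicate was left out, 0.31 with scaling to detected probes and 0.22 with normexp, against 0.40) and on replicate 2 (-0.36 to -0.19 when 1 replicate was left out). The sterol synthesis enzymes lowest on replicate 2 numbered 13 to 15, a number that leaving out another replicate could not lower. The median SD of detected members ranged from 0.22 to 0.35 when 1 replicate was left out. On replicate 4 the members' median deviation, -0.05, turned to 0.063 with scaling to detected probes, 0.045 with quantile normalization and 0.062 with normexp, and ranged from -0.14 to 0.093 with replicates left out; on replicate 3 that range was -0.17 to 0.089. With scaling to detected probes, 5 members were lowest on replicate 1, 3 lowest on replicate 4 and 8 highest on replicate 4. With normexp, 5 were lowest on replicate 1 and 9 highest on replicate 4. With 1 replicate left out, members lowest numbered 3 to 5 on replicate 1, 5 to 14 on replicate 3 and 6 to 13 on replicate 4, and members highest numbered 4 to 8 on replicate 2, 3 to 10 on replicate 3 and 5 to 14 on replicate 4, since a left-out array hands its rank to the others. Of 185 summary values over 13 alternatives, 166 kept their sign and moved by less than the spread used for them (counts by less than 1.5 times), 14 moved more and 5 changed sign. The single levels of the 32 detected members moved by more than their SD in 32 with scaling to detected probes, in 24 with normexp and in 1, Elovl6, without replicate 3. Scaling to detected probes sets the zero at the 75th percentile of those probes, so every level on an array falls by the same amount. Hmgcs1, for example, went from 3.88 to 0.80 and Lpcat3 from 3.86 to 0.78. The causes of the other scaling differences were not tested. No paired analysis was possible because the labels give 1 group. Signal over background limits Fasn, Scd, Fads1 and Fads2, which have no reliable level.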
